A study of Homo sapiens with 6 samples.

Results

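The transcripts of the aryl hydrocarbon receptor (AHR) and of 7 genes that work with it were compared between A549-TIPARP cells and A549-GFP cells. The set held the receptor gene AHR, its partners ARNT and ARNT2, its repressor AHRR, its cochaperone PTGES3, and its target genes CYP1A1, CYP1B1 and ALDH3A1. The 8 genes were chosen by symbol from the 53826 gene entries of the tables. The rule used no measured value, but the set was put together with earlier results of these data known. A549 cells were derived from a human adenocarcinoma of the lung. A549-TIPARP cells stably carried a pMXs retrovirus with the coding region of TIPARP, and A549-GFP cells carried the same vector with GFP (below, the TIPARP line and the GFP line). The TIPARP insert had been amplified from cDNA of A549-OKS cells. Both lines otherwise shared the same parental cells, and no AHR ligand or other treatment is named for either line. The sources used here do not say whether a line was a pool or 1 clone. RNA-seq was performed on 3 libraries of each line, numbered by experiment, and nothing states that they came from separate cultures, so that p-values measure the spread between these libraries. Values were log2 TPM (transcripts scaled to a fixed total per library, a level corrected for transcript length), with every TPM below 1 set to 1, so that a listed value of 0 means a level of 1 TPM or less. Read numbers cannot be recovered from TPM, so the depth is unknown.

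AHR is a transcription factor of the bHLH-PAS family that is activated by small molecules such as dioxins, polycyclic aromatic hydrocarbons and the tryptophan product kynurenine. Without a ligand it is held in the cytosol by a chaperone complex, and with one it enters the nucleus, pairs with ARNT and binds DNA at response elements with the core GCGTG. Its best known targets encode enzymes that oxidize foreign compounds, and it also induces its own inhibitors. AHRR competes with it for ARNT, and TIPARP, an enzyme that attaches single ADP-ribose units to proteins, modifies AHR and limits its activity. The comparison therefore shows the AHR pathway in cells in which 1 of its own feedback genes was overexpressed.

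The promoter sequences of CYP1A1 and AHRR are shown because these are the AHR targets among the 8 genes that were listed at 0 in every library. Of the 8 genes, 5 had a promoter window in the RefSeq table (GRCh38.p14), which runs from 250 bases before the gene start to 50 bases after it. ARNT2, CYP1B1 and ALDH3A1 had no entry. AHRR had 2 windows, 1 for each of 2 annotated starts, and that of the first start is shown. The part of the window before the start and outside annotated exons is printed for both genes, with the core GCGTG in capitals.
CYP1A1 (chr15:74725537-74725778, minus strand): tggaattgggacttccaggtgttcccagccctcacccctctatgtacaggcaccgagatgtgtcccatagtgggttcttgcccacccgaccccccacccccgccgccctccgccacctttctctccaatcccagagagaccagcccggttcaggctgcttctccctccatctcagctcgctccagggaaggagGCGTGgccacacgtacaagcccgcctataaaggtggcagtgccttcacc
AHRR (chr5:321464-321713, plus strand): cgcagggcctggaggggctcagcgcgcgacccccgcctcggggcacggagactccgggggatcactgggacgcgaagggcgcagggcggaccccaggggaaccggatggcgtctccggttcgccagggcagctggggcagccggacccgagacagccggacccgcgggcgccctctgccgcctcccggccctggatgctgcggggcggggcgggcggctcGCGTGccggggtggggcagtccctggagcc
The core printed for CYP1A1 began 57 bases before the gene start and the core printed for AHRR 30 bases before the first start, both on the strand of the gene. GCGTG was searched on both strands, as GCGTG and CACGC. Over the whole windows it was found once in the window of CYP1A1 and once in that of AHR, 3 times in that of PTGES3 and 0 times in that of ARNT. The windows of the first and second start of AHRR held 1 and 2 matches. Of all 35116 windows in the table, 36.5% held at least 1 match, so these letters are common in promoters of this length. Whether AHR binds at a match was not tested, and bases more than 250 before a start were not searched.

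The overexpressed gene was checked first. TIPARP had 6.79, 11.4 and 3.68 TPM in replicates 1, 2 and 3 of the GFP line and 131, 90.5 and 123 TPM in those of the TIPARP line, and the lines did not overlap. These values count the transgene and the endogenous gene together. The limma log2 fold change on log2(TPM + 1) was 3.90 (limma adjusted p = 0.0125, a test fitted across all 13181 entries with TPM above 2 in at least 1 library). With any single library other than A549-GFP replicate 2 left out, this limma adjusted p-value was above 0.05, and at most 0.192. It was also above 0.05 with experiment as a replicate block (limma adjusted p = 0.513) and without the filter on low values (limma adjusted p = 0.0965). The epithelial markers EPCAM, CDH1, KRT7, KRT8 and KRT18 were present in every library, at a summed level of 10771 TPM in A549-GFP replicate 2 and of 18533 to 23386 TPM in the other 5 libraries. In A549-GFP replicate 2 KRT8 was at 3855 TPM and KRT18 at 4176 TPM, the lowest of the 6 libraries for both. The alveolar markers NKX2-1, SFTPB and SFTPC were at 0 in all 6 libraries, as were the leukocyte markers PTPRC and CD3E, the endothelial markers PECAM1, VWF and CDH5, and the fibroblast marker DCN. CD68 was highest in the same library, at 68.1 TPM against 25.0 to 36.0 TPM in the others, LUM did not pass 1.09 TPM and COL1A1 was at 1 to 1.44 TPM in the GFP line and 1.64 to 2.56 TPM in the TIPARP line. A549-GFP replicate 2 stood apart. It deviated from the mean of its line by 0.62 (root mean square, log2 scale), against 0.19 to 0.40 in the other 5 libraries, and its median level was 0.27 above the mean library while that of A549-GFP replicate 3 was 0.19 below it.

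For none of the 6 genes that could be tested did the 95% interval of the difference between the lines exclude 0. AHRR and CYP1A1 were at the floor in every library and could not be compared. Of the 6 genes that passed the limit of 2 TPM, 0 were called by limma at an adjusted p-value under 0.05, and 0 had an unadjusted p-value under 0.05. Over all entries limma called 0.0152%, and 3.85% had an unadjusted p-value under 0.05. No member was past 2-fold on the deposited log2 scale, where 1.96% of all entries were. In no member did all 3 libraries of a line stand above all 3 of the other, a separation found for 8.91% of all entries. The widest differences of the mean were a lower level of CYP1B1, a higher level of ARNT2 and a lower level of AHR in A549-TIPARP cells, and their 95% intervals all included 0.

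**Figure D1:**
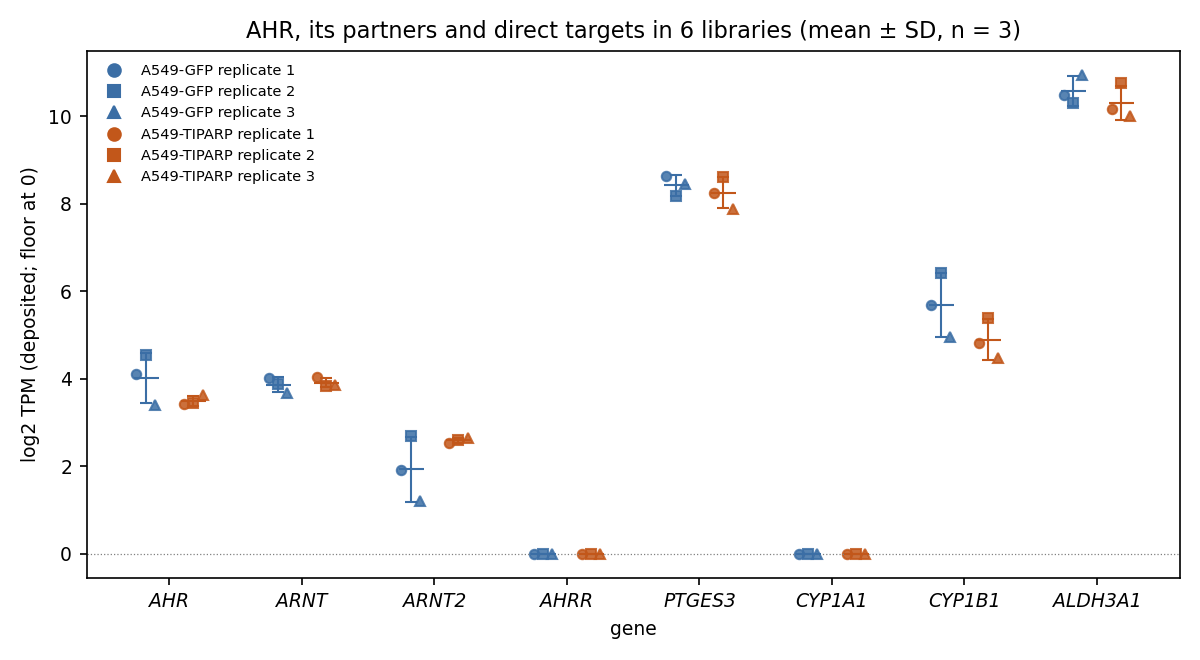
Deposited log2 TPM of the 8 genes (y axis) in each of the 6 libraries, with A549-GFP in blue and A549-TIPARP in orange, and bars for the mean ± SD of 3 libraries. AHRR and CYP1A1 lie at the floor of 0 in all 6 libraries, and the A549-GFP libraries of AHR, ARNT2 and CYP1B1 spread more widely than those of A549-TIPARP.

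The level of the genes covered a wide range. ALDH3A1 was by far the most abundant, at 1030 to 1986 TPM, which was rank 103 of the 13181 entries. PTGES3 followed at 238 to 399 TPM and CYP1B1 at 22.2 to 85.7 TPM. ARNT lay between 12.9 and 16.4 TPM and AHR between 10.7 and 23.4 TPM, both near the middle of the analysed entries. ARNT2 was the lowest of the genes above the floor, at 2.30 to 6.43 TPM, and AHRR and CYP1A1 were at the floor. Within a library, each gene stood above the next in this order in 6 of 6 libraries, except for ARNT and AHR. ARNT was above AHR in 4 of 6 libraries, with a mean difference of 0.12 on the log2 scale and an SD of 0.45 (n = 6), so these neighbours did not differ beyond their spread.

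AHR (Entrez Gene ID 196; hg38 chromosome 7, 17298652 to 17346147, plus strand, 11 exons in the canonical transcript) encodes the receptor itself. Its level was 17.3, 23.4 and 10.7 TPM in replicates 1, 2 and 3 of the GFP line and 10.8, 10.9 and 12.4 TPM in those of the TIPARP line. The A549-TIPARP libraries were close together at the lower end of the A549-GFP range, and the lines overlapped because A549-GFP replicate 3 was the lowest library of all. The mean log2 TPM was 4.03 ± 0.57 (SD, n = 3) in A549-GFP cells and 3.50 ± 0.11 (SD, n = 3) in A549-TIPARP cells, a 1.44-fold lower level. The limma log2 fold change on log2(TPM + 1) was -0.49 (standard error 0.28, 95% interval -1.14 to 0.16, limma adjusted p = 0.994). As ratios of the TIPARP line to the GFP line, these bounds are 0.454 and 1.11, so that a 2-fold lower level lies inside the interval and a 2-fold higher one outside. When A549-GFP replicate 2 was left out, the deposited log2 difference went from -0.52 to -0.26, and without A549-GFP replicate 3, to -0.83. In the latter case the libraries of the lines no longer overlapped, as was true of 30.7% of all entries.

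ARNT (Entrez Gene ID 405; chromosome 1, 150809713 to 150876599, minus strand, 22 exons) is the nuclear partner with which AHR binds DNA. It was the steadiest of the genes, with 16.3, 14.7 and 12.9 TPM in the GFP line and 16.4, 14.4 and 14.4 TPM in the TIPARP line. The ranges overlapped, and the log2 fold change was 0.04 (standard error 0.20, 95% interval -0.40 to 0.49, limma adjusted p = 0.998). A 2-fold difference in either direction lies outside this interval.

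ARNT2 (Entrez Gene ID 9915; chromosome 15, 80404382 to 80597933, plus strand, 19 exons) is a close relative of ARNT that is best known from neural tissue and can also pair with bHLH-PAS proteins. Its level was 3.77, 6.43 and 2.30 TPM in replicates 1, 2 and 3 of the GFP line and 5.83, 6.06 and 6.24 TPM in those of the TIPARP line. A pair of A549-GFP libraries lay below all A549-TIPARP libraries, while A549-GFP replicate 2 lay above them. The mean log2 TPM was 1.93 ± 0.74 in A549-GFP cells and 2.59 ± 0.05 in A549-TIPARP cells (SD, n = 3), a 1.58-fold higher level. The limma log2 fold change, on log2(TPM + 1), which understates the change of a gene this low, was 0.53 (standard error 0.30, 95% interval -0.17 to 1.22, limma adjusted p = 0.994). When A549-GFP replicate 2 was left out, the deposited log2 difference was 1.04, past 2-fold, the lines did not overlap, and the limma adjusted p-value was 0.266. With that library left out 27.7% of all entries did not overlap and 2.91% were more than 2-fold higher. When A549-GFP replicate 3 was left out instead, the difference went from 0.66 to 0.30. After rescaling of the libraries to a common median, the lines did not overlap for ARNT2 either, as for 12% of all entries.

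AHRR (Entrez Gene ID 57491; chromosome 5, 321714 to 438285, plus strand, 11 exons), the repressor that AHR induces, was listed at 0 in all 6 libraries. Its level was therefore 1 TPM or less in both lines, and no fold change was computed. PTGES3 (Entrez Gene ID 10728; chromosome 12, 56663349 to 56688284, minus strand, 8 exons), a cochaperone of the cytosolic AHR complex, had 399, 289 and 351 TPM in the GFP line and 305, 390 and 238 TPM in the TIPARP line. The ranges overlapped, with a log2 fold change of -0.17 (standard error 0.22, 95% interval -0.67 to 0.32, limma adjusted p = 0.994). PTGES3 has processed pseudogenes with a similar sequence, and the 5 entries named as such were at 0 in every library. How reads that match several genes were assigned is not given in the sources used here.

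Among the targets, CYP1A1 (Entrez Gene ID 1543; chromosome 15, 74719542 to 74725528, minus strand, 7 exons) encodes the monooxygenase that is the standard readout of AHR activity. It was listed at 0 in all 6 libraries, so that both lines had 1 TPM or less and a difference below that limit could not be seen. CYP1B1 (Entrez Gene ID 1545; chromosome 2, 38067509 to 38076151, minus strand, 3 exons), a related monooxygenase that acts on estrogens and polycyclic hydrocarbons, was expressed. It had 51.5, 85.7 and 31.2 TPM in replicates 1, 2 and 3 of the GFP line and 28.1, 42.3 and 22.2 TPM in those of the TIPARP line. A549-TIPARP replicates 1 and 3 were below every A549-GFP library, while replicate 2 lay within the A549-GFP range. The mean log2 TPM was 5.69 ± 0.73 in A549-GFP cells and 4.90 ± 0.47 in A549-TIPARP cells (SD, n = 3), a 1.74-fold lower level. The limma log2 fold change on log2(TPM + 1) was -0.78 (standard error 0.37, 95% interval -1.62 to 0.07, limma adjusted p = 0.994), the widest of the 8 genes. On the deposited scale it was -0.80, and it went to -0.43 without A549-GFP replicate 2, to -1.16 without A549-GFP replicate 3 and to -1.05 without A549-TIPARP replicate 2. Past 2-fold in both of the latter cases, the lines then also did not overlap, as was true of 30.7% and 16.1% of all entries, and 1.52% and 0.448% of all entries were more than 2-fold lower. The antisense gene CYP1B1-AS1, which overlaps CYP1B1, was listed at 0 in all 6 libraries, and whether counting used the strand is not given in the sources used here.

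ALDH3A1 (Entrez Gene ID 218; chromosome 17, 19737989 to 19748298, minus strand, 11 exons), an aldehyde dehydrogenase that clears aldehydes, had 1432, 1261 and 1986 TPM in the GFP line and 1146, 1732 and 1030 TPM in the TIPARP line. The lines overlapped, and the log2 fold change was -0.27 (standard error 0.24, 95% interval -0.83 to 0.29, limma adjusted p = 0.994). A549-GFP replicate 3, the lowest library for AHR, ARNT2 and CYP1B1 among its line, was the highest for ALDH3A1. Without A549-TIPARP replicate 2 the deposited log2 difference was -0.49 and without A549-GFP replicate 3 it was -0.08. In the first of these cases the lines did not overlap, as for 16.1% of all entries.

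**Figure D2:**
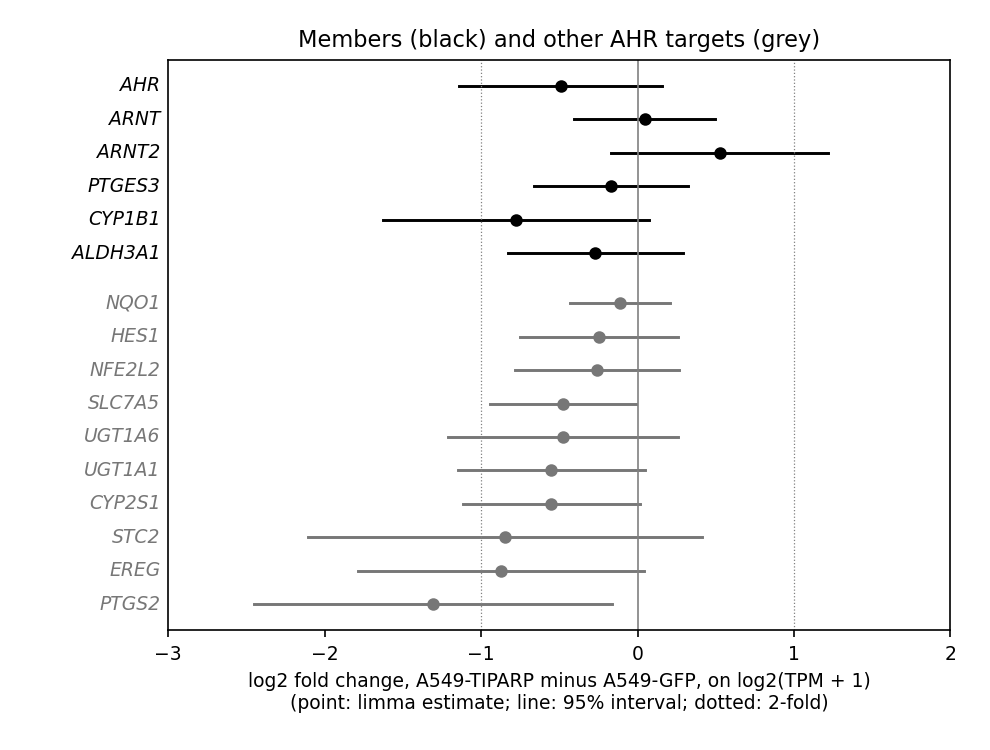
limma log2 fold changes on log2(TPM + 1), A549-TIPARP minus A549-GFP (x axis), for the 6 tested members (black) and 10 other AHR targets (grey), with lines for the 95% interval and dotted lines at 2-fold. The interval of every member includes 0, ARNT has the estimate nearest to 0 among the members, and the estimates of the other targets lie left of 0.

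Because whole libraries were shifted against each other, levels of these genes were also set against each other within a library. The 4 ratios were chosen after the values had been seen, and with 3 libraries against 3 an exact permutation test cannot go below p = 0.10. The log2 ratio of AHR to ARNT2 was 2.20, 1.86 and 2.21 in A549-GFP replicates 1, 2 and 3 and 0.89, 0.84 and 0.99 in A549-TIPARP. All A549-TIPARP libraries were below all A549-GFP libraries. The pair joins a gene with a lower mean in the TIPARP line to one with a higher mean, and such separation was common among ratios. It was found for 2 of the 15 pairs of tested members (also ARNT2 to CYP1B1), for AHR against 27.2% of the 13180 other analysed entries and for ARNT2 against 46.8% of them. A separation with a difference at least as large as that between AHR and ARNT2 was found for AHR against 3.49% of the entries and for ARNT2 against 4.01%. The mean went from 2.09 ± 0.20 to 0.91 ± 0.07 (SD, n = 3), a difference of -1.18, with the smallest p that the design allows (exact permutation test, two-sided, p = 0.10, adjusted over the 4 ratios 0.40). When single libraries were left out the difference ranged from -1.30 to -1.13, and with 1 added to TPM it was -1.02.

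The other ratios overlapped between the lines. The log2 ratio of AHR to ARNT was 0.16 ± 0.48 in A549-GFP cells and -0.41 ± 0.19 in A549-TIPARP cells (SD, n = 3; exact permutation test, two-sided, p = 0.20, adjusted 0.40). That of ARNT2 to ARNT was -1.93 ± 0.67 and -1.32 ± 0.15 (p = 0.40 by the exact permutation test, adjusted 0.50). That of CYP1B1 to AHR was 1.67 ± 0.18 and 1.39 ± 0.56 (p = 0.50 by the exact permutation test, adjusted 0.50). In A549-GFP cells this last ratio was between 1.55 and 1.87 although both genes differed by more than 2-fold between the libraries.

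**Figure D3:**
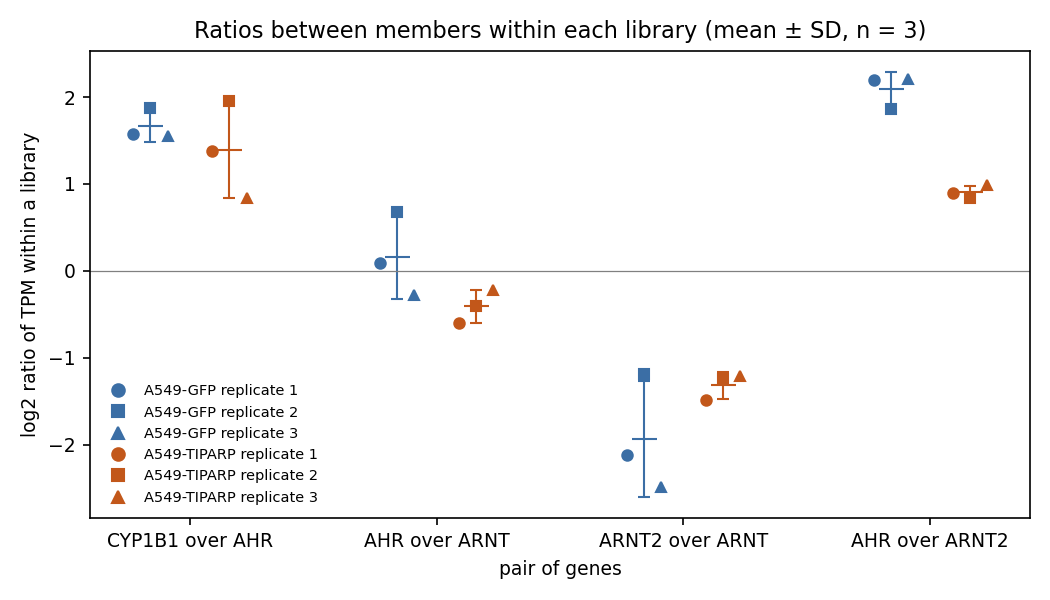
Log2 ratio of the TPM of 2 genes within each library (y axis) for 4 pairs of genes, with A549-GFP in blue, A549-TIPARP in orange and bars for the mean ± SD of 3 libraries. The ratio of AHR to ARNT2 lies between 1.86 and 2.21 in A549-GFP cells and between 0.84 and 0.99 in A549-TIPARP cells, and the other ratios overlap.

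The spread between libraries differed by line. For AHR the SD of log2 TPM was 0.57 in A549-GFP cells and 0.11 in A549-TIPARP cells, for ARNT2 it was 0.74 and 0.05, and for CYP1B1 0.73 and 0.47. For ARNT it was 0.17 and 0.11. The SD of PTGES3 (0.23 and 0.36) and of ALDH3A1 (0.34 and 0.40) was the larger in A549-TIPARP cells. Over all analysed entries the median SD was 0.39 in A549-GFP cells and 0.19 in A549-TIPARP cells, and 79.6% of entries had the larger SD in A549-GFP cells. The direction of AHR, ARNT, ARNT2 and CYP1B1 was thus that of most entries, and that of PTGES3 and ALDH3A1 was not. In A549-GFP cells AHR, ARNT2, CYP1B1 and TIPARP were all highest in replicate 2 and lowest in replicate 3, as was the median level of the libraries. After the rescaling of the libraries the SD of AHR in A549-GFP cells was 0.35, that of ARNT2 0.51 and that of CYP1B1 0.50. The SD in A549-GFP cells rose for the other tested members, to 0.42 for PTGES3, 0.56 for ALDH3A1 and 0.20 for ARNT. With the shift removed in this way, the deposited log2 difference between the lines was -0.46 for AHR in place of -0.52, 0.73 for ARNT2 in place of 0.66, and -0.73 for CYP1B1 in place of -0.80.

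A wider list of 17 genes that AHR is known to induce was examined in the same fit. CYP1A1, CYP1A2, AHRR and SERPINB2 were at 0 in all 6 libraries. Of the 13 genes tested, TIPARP itself had the higher mean in the TIPARP line and the other 12 the lower mean. UGT1A1 and UGT1A6, which share most of their exons, are counted as 2 of these 12. Over all entries, 59.9% had the lower mean in the TIPARP line and 40.1% the higher. The list was put together with earlier results of these data known, so its direction is a description. The median log2 fold change of the 12 genes was -0.61 on the deposited scale, against -0.07 for all entries. No gene of the 12 was called by limma (0 of 12 at an adjusted p-value under 0.05), where 0.0152% of all entries were. An unadjusted limma p-value under 0.05 was found for 2, PTGS2 and SLC7A5. In the lower direction, 0.88% of all entries had an unadjusted p-value under 0.05.

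Among single targets other than the members, NQO1, a quinone reductase that is also induced by the transcription factor NRF2, was the most abundant, with 1487, 1486 and 1434 TPM in the GFP line and 1321, 1482 and 1277 TPM in the TIPARP line, and its log2 fold change was -0.11 on either scale. SLC7A5, a transporter of large neutral amino acids, had 820, 660 and 571 TPM in the GFP line and 592, 486 and 397 TPM in the TIPARP line (log2 fold change -0.48, standard error 0.20, limma adjusted p = 0.994). The lines overlapped, since A549-GFP replicate 3 was below A549-TIPARP replicate 1. PTGS2, which makes prostaglandin precursors, had 20.7, 77.1 and 17.4 TPM in the GFP line and 9.28, 15.4 and 11.2 TPM in the TIPARP line. It was the only one of the 12 past 2-fold, 2.59-fold lower, where 0.432% of all entries were more than 2-fold lower. Its libraries did not overlap, but its log2 fold change went from -1.37 to -0.70 without A549-GFP replicate 2. CYP2S1, a further cytochrome of the xenobiotic type singled out after its values were seen, was the other gene with all A549-TIPARP libraries below all A549-GFP libraries, with 79.1, 149 and 91.7 TPM against 61.0, 72.5 and 76.4 TPM. Over all entries 3.54% were separated in this direction. UGT1A1, a glucuronosyltransferase, was the lowest of the list above the floor, at 3.01, 3.35 and 1.63 TPM in the GFP line and 1.30, 1.17 and 1.91 TPM in the TIPARP line. It shares most of its exons with UGT1A6, so the values of both genes are uncertain.

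**Figure D4:**
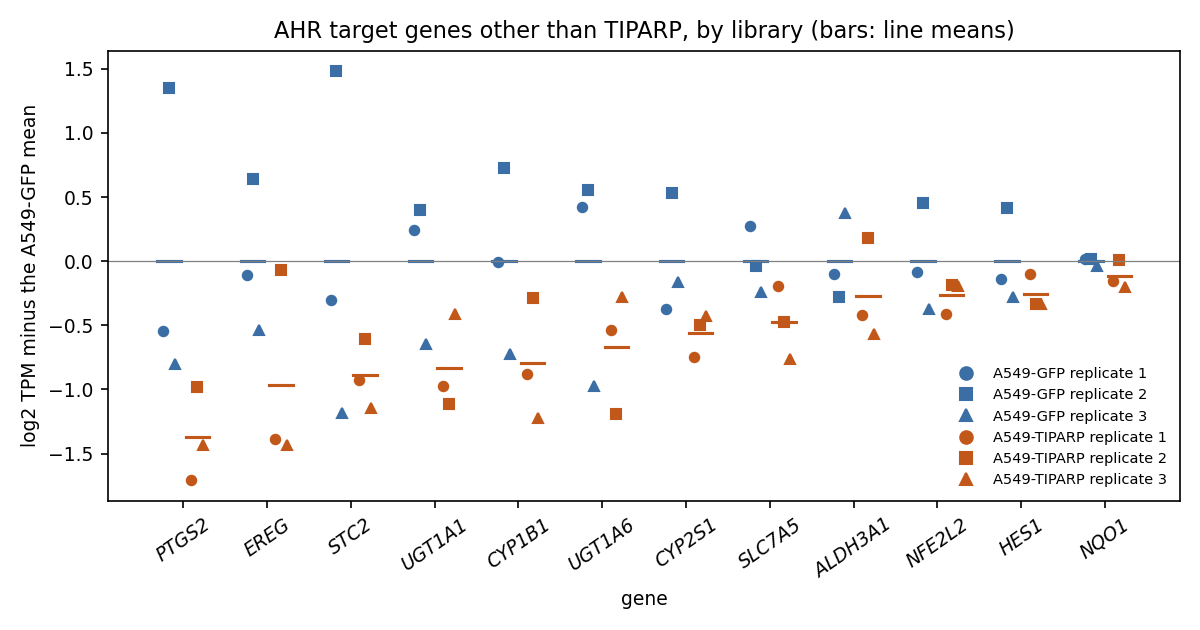
Log2 TPM of 12 AHR targets other than TIPARP minus the mean of the A549-GFP libraries (y axis), by library, with bars for the mean of each line. The A549-TIPARP mean (orange) lies below 0 for all 12 genes, and A549-GFP replicate 2 (blue square) is the highest library for 9 of them.

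The maximum over the 6 libraries was in A549-GFP replicate 2 for 9 of the 12 genes, and for 52.0% of all entries. After rescaling of the libraries it was there for 7 of the 12 genes, and for 31.5% of all entries. Without it all 12 genes still had the lower mean in the TIPARP line, where 42.6% of all entries had one, and the median was -0.40 against 0.05 over all entries. However, 0 of the 12 were past 2-fold when this library was left out, where 0.296% of all entries were more than 2-fold lower. When A549-GFP replicate 3 was left out there were 6, namely CYP1B1, UGT1A1, UGT1A6, EREG, STC2 and PTGS2, with 1.52% of all entries. Without A549-TIPARP replicate 2 there were 4 (CYP1B1, EREG, STC2 and PTGS2), with 0.448% of all entries, and without A549-GFP replicate 1 there were 3 (EREG, STC2 and PTGS2), with 1.16%. Without A549-TIPARP replicate 3 there were 2, UGT1A1 and PTGS2, with 0.781%. After rescaling of the libraries all 12 also had the lower mean, against 50.3% of all entries, with a median of -0.55 against -0.0016, and PTGS2 was past 2-fold. EREG and STC2 were singled out in this way after their values were seen. EREG, a ligand of the EGF receptor, had 14.2, 23.8 and 10.5 TPM in the GFP line and 5.85, 14.6 and 5.65 TPM in the TIPARP line. STC2, a secreted glycoprotein, had 16.3, 56.0 and 8.83 TPM and 10.6, 13.2 and 9.08 TPM, and its log2 fold change went from -0.89 to -0.15 when A549-GFP replicate 2 was left out.

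The heat shock chaperones that hold AHR in the cytosol together with PTGES3 were abundant in both lines. Neither HSP90AA1 nor HSP90AB1 was past 2-fold or had an unadjusted limma p-value under 0.05. Over all entries 1.96% were past 2-fold and 3.85% had such a p-value. HSP90AB1 was the higher, with 1276, 710 and 1173 TPM in the GFP line and 991, 1327 and 796 TPM in the TIPARP line, with a log2 fold change of -0.0069 (standard error 0.27, limma adjusted p = 0.998). HSP90AA1, which the rule for named genes does not cover and which was added with its values known, had 896, 591 and 804 TPM in the GFP line and 611, 988 and 393 TPM in the TIPARP line, with a log2 fold change of -0.28 (standard error 0.32, limma adjusted p = 0.994). The lines overlapped for both genes. In the GFP line both were lowest in replicate 2, the library that was highest for AHR, ARNT2 and CYP1B1.

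Of 15 other bHLH-PAS proteins, which include further partners of ARNT, the clock proteins and AHR coactivators, 4 were at 0 in all libraries (HIF3A, SIM1, NPAS3 and NPAS4). None of the 11 tested genes was past 2-fold, where 1.96% of all entries were, and none was called by limma, where 0.0152% were. Their median log2 fold change was -0.12, against -0.07 for all entries. This median was 0.03 without A549-GFP replicate 2, where 6 of the 11 had the higher mean, and -0.42 without A549-GFP replicate 3. EPAS1, an oxygen-regulated factor that also pairs with ARNT, was the most abundant and had the only unadjusted p-value under 0.05, where 0.88% of all entries had one in this direction. It had 243, 229 and 183 TPM in the GFP line and 127, 134 and 128 TPM in the TIPARP line, and the lines did not overlap. Its level was 1.68-fold lower, with a log2 fold change of -0.74 (standard error 0.17, 95% interval -1.12 to -0.36, limma adjusted p = 0.489). Over the fits with 1 library fewer, it stayed on the deposited scale between -0.87 and -0.66. NPAS2, singled out after its values were seen, also had all A549-TIPARP libraries below all A549-GFP libraries, at 36.6 to 46.3 TPM against 49.6 to 81.0 TPM. This separation was seen for 2 of the 11 genes and for 3.54% of all entries. SIM2 was the lowest of the tested genes, at 1.15 to 2.09 TPM. Without A549-GFP replicate 2, NPAS1, singled out after its values were seen, was past 2-fold in the higher direction, with a log2 fold change of 1.12 in place of 0.25.

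The kynurenine pathway, which turns tryptophan into an AHR ligand, was the last list. Of its 13 genes, 7 were tested, 5 were at 0 in every library and TDO2 did not reach the limit. IDO1, which with TDO2 starts the pathway, was low, with 2.31, 4.59 and 2.35 TPM in the GFP line and 3.12, 3.13 and 1.62 TPM in the TIPARP line. KYNU, which cleaves kynurenine, was the most abundant, with 328, 322 and 324 TPM in the GFP line and 219, 252 and 287 TPM in the TIPARP line. All A549-TIPARP libraries were below all A549-GFP libraries, as for 3.54% of all entries, with a log2 fold change of -0.37 (standard error 0.16, limma adjusted p = 0.994). QPRT, which makes the NAD precursor from quinolinate further down, was past 2-fold, with 12.5, 10.4 and 13.3 TPM in the GFP line and 28.8, 29.6 and 55.5 TPM in the TIPARP line. All A549-TIPARP libraries were above all A549-GFP libraries, as for 5.36% of all entries. It was 3.01-fold higher, where 1.53% of all entries were more than 2-fold higher, and its log2 fold change on log2(TPM + 1) was 1.51 (standard error 0.28, limma adjusted p = 0.311). When single libraries were left out its log2 fold change on the deposited scale stayed between 1.28 and 1.75. The median of the 7 genes was 0.01. QPRT was the 1 gene of the list that was higher at an unadjusted p-value under 0.05, as 2.97% of all entries were, and KYNU the 1 that was lower, as 0.88% of all entries were.

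The genes with the most similar profile over the 6 libraries were found for the 3 members whose values spanned more than 1 on the log2 scale. Likeness was the root mean square difference of log2(TPM + 1) after the mean of each gene was subtracted. For AHR the nearest were CYP4F3, a hydroxylase of leukotrienes, at 0.068, GPR157 at 0.072 and the isocitrate dehydrogenase IDH1 at 0.075. For ARNT2 they were HPGD, which inactivates prostaglandins, at 0.074, AHNAK2 at 0.075 and RASSF2 at 0.076. For CYP1B1 they were ASAH2B at 0.16, ZNF770 at 0.17 and ZBTB38 at 0.18, so that its nearest profiles were less close than those of the other genes. All 6 nearest genes of AHR and CYP1B1 were lower on average in the TIPARP line, and all 3 of ARNT2 higher, which the measure itself brings about. With 6 libraries that share their shifts in level, these profiles are a description.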

How the data were processed

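RNA-seq was performed on 3 libraries of A549-GFP cells and 3 libraries of A549-TIPARP cells. Per the labels, total RNA was made into stranded mRNA libraries. Read pairs were mapped by the authors with Strand NGS against hg38 transcripts and summed as TPM. For each library they deposited log2 TPM, with values below 1 TPM set to 1. The software version, the annotation release and the use of strand in counting are not given in the sources used here. No read counts were used, so the depth is unknown and no counting error is given.

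Libraries were assigned to lines and replicates by their titles. The 13181 of 53826 entries that passed 2 TPM in any library were analysed, as in the study. A limma fit (version 3.58.1, R 4.3.3) used log2(TPM + 1), a variance trend and no block, with Benjamini-Hochberg adjustment over the 13181 entries. Fold changes on the deposited scale are differences of mean log2 TPM. Exact permutation tests used scipy 1.17.1. The fit was checked on simulated data. With no counts at hand, count models were not used. Positions are those of GENCODE 44 canonical transcripts on hg38.

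The 8 genes and the gene lists were chosen with earlier results of these data known. Named genes are the 8 members, TIPARP, list genes past 2-fold or with an unadjusted p-value under 0.05, the highest and lowest expressed gene of each list, and the 3 nearest profiles of each member that spanned more than 1 in log2 TPM. A gene of the chaperone list is not reported here. CCBL1 and CCBL2 were matched as KYAT1 and KYAT3. Alternatives were a pseudocount of 0.1 or none, a limit of 2 TPM passed in 3 or more libraries, no filter, median-ratio rescaling, limma without a trend, the experiment number as a block, a 1.5-fold threshold, arithmetic means of TPM, and each library left out in turn. The ratios between members, their alternatives, the shares of other pairs that separate and the count of lower targets without each library were chosen after the data were seen.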

Additional observations from a re-analysis of the deposited data

How the results depend on the processing

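Of the 6 tested members, 0 were called by limma in the reported fit and in all 13 alternatives. AHR, ARNT2, CYP1B1 and ALDH3A1 kept their direction in all 13, with adjusted p-values from 0.266 to 1. The log2 fold change of PTGES3 ranged from -0.35 to 0.0079 and that of ARNT from -0.037 to 0.12 with each library left out. PTGES3 was 0.0079 without A549-TIPARP replicate 3, and ARNT was -0.037 without A549-GFP replicate 3 and -0.013 without A549-TIPARP replicate 1. No member was past 2-fold, against 2 past 1.5-fold (CYP1B1 and ARNT2), where 8.72% of all entries were, and 0 to 1 with a library left out, where 2.11% to 3.62% of all entries were past 2-fold in place of 1.96%. Members that did not overlap numbered 0, against 1 after median-ratio rescaling and 0 to 2 with a library left out, where 8.91%, 12% and 11.7% to 30.7% of all entries did not overlap. Among the other bHLH-PAS genes 0 to 1, and among the wider targets with TIPARP 1 to 7, were past 2-fold with a library left out, against 0 and 2. The log2 fold change of TIPARP was 3.90 without a filter (limma adjusted p = 0.0965), and from 3.54 to 4.24 with a library left out (limma adjusted p from 0.0331 to 0.192, above 0.05 in 5 of 6 cases, all but that without A549-GFP replicate 2). With experiment as a replicate block, it was 3.90 (limma adjusted p = 0.513), 1 entry was called in place of 2, and no call of a member changed. Deviations of same-numbered libraries correlated at 0.41, -0.49 and -0.36, and those of differently numbered ones at -0.62 to 0.60. With 3 libraries per line, these values cannot decide whether a number marks a shared culture or batch. The sources used here do not state it. All entries past 2-fold numbered 202 higher and 57 lower, against 78 and 20 with a pseudocount of 1. Entries with an unadjusted limma p-value under 0.05 numbered 508, against 786 after median-ratio rescaling and 253 to 1379 with a library left out. Levels of 1 TPM or less, as for CYP1A1 and AHRR, could not be compared.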
